A study of Mus musculus with 6 samples.

Results

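Triadin, encoded by Trdn, was read by 19 of the 35556 probe sets on the Mouse Gene 1.0 ST array, out of 19938 genes that are listed with a symbol of their own. A probe set is a group of short oligonucleotides summarised to 1 value. The probe sets were taken from the platform annotation, as all those whose only gene symbol is Trdn, and are given here by identifier. The gene was picked for description because earlier readings of these arrays had shown a wide difference between genotypes at 1 of its probe sets and almost none at its brightest, so that the group differences below are a description and not a test of the gene.

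Triadin is a membrane protein of the junctional sarcoplasmic reticulum, the part of the calcium store that faces the T-tubules. It binds the ryanodine receptor, through which calcium is released at each beat, and calsequestrin, which buffers calcium inside the store, and it works there beside the related protein junctin. Several triadin proteins are made from the gene by alternative splicing, a short form being the main one in heart and longer forms being known from skeletal muscle. In mice, loss of triadin disturbs the contact between the sarcoplasmic reticulum and the T-tubules.

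RNA came from hearts of 3-month-old male VAChT KDHOM and WT mice, with 3 arrays per genotype and a pool of 2 RNA samples on each array. VAChT KDHOM mice are homozygous for an allele that lowers the vesicular acetylcholine transporter throughout the body, so that cholinergic tone is reduced in every organ and not in the heart alone. The labels give C57BL/6 as the strain and heart as the tissue for both genotypes, while the methods describe ventricles and a mixed C57BL6/j background after 3 generations of backcrossing. Values are log2 signals, so that a difference of 1 is a doubling. The pools are the replicates, so that p-values reflect variation among pools and not among single mice, and with 3 arrays in each group the smallest two-sided p of an exact permutation test is 0.1.

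The arrays are called by their labels, which the data do not bear out in every case. Slc18a3, the gene for the transporter that is lowered, read 7.24, 6.77 and 7.58 on the VAChT KDHOM arrays 1 to 3 and 7.31, 7.42 and 7.11 on the WT arrays 1 to 3. Its groups overlapped, with a difference of -0.08 (standard error 0.20), so its values do not tell the genotypes apart. Ogdhl, an oxoglutarate dehydrogenase-like gene, read 7.06, 10.17 and 7.09 on the VAChT KDHOM arrays and 9.60, 7.21 and 10.33 on the WT arrays, so that each array numbered 2 lay with the other genotype. The labels were kept. The main Trdn counts are also given without both arrays numbered 2 and with the labels of this pair exchanged, an alternative chosen after the data were seen. Markers of cardiomyocytes were bright on every array, all 9 of 9 lying above background. Their mean log2 signal was 13.19 to 13.87 on VAChT KDHOM arrays and 13.81 to 13.83 on WT arrays, the lowest being that of VAChT KDHOM 1.

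Most Trdn probe sets gave a signal above background in the heart, a few lay near or below it, and the spread between them was wide. Background was set at a log2 signal of 6.50, the 95th percentile of 1035 probe sets of olfactory receptors, genes of the nasal epithelium. Of the 19 probe sets, 16 lay above it on all 6 arrays, 1 on some arrays and 2 on no array. The mean over the 6 arrays ran from 3.50 at probe set 10362454 to 12.55 at probe set 10362420, a range of 9.04. Signal also depends on how well each group of oligonucleotides binds, and transcript amount and binding cannot be told apart between probe sets.

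**Figure D1:**
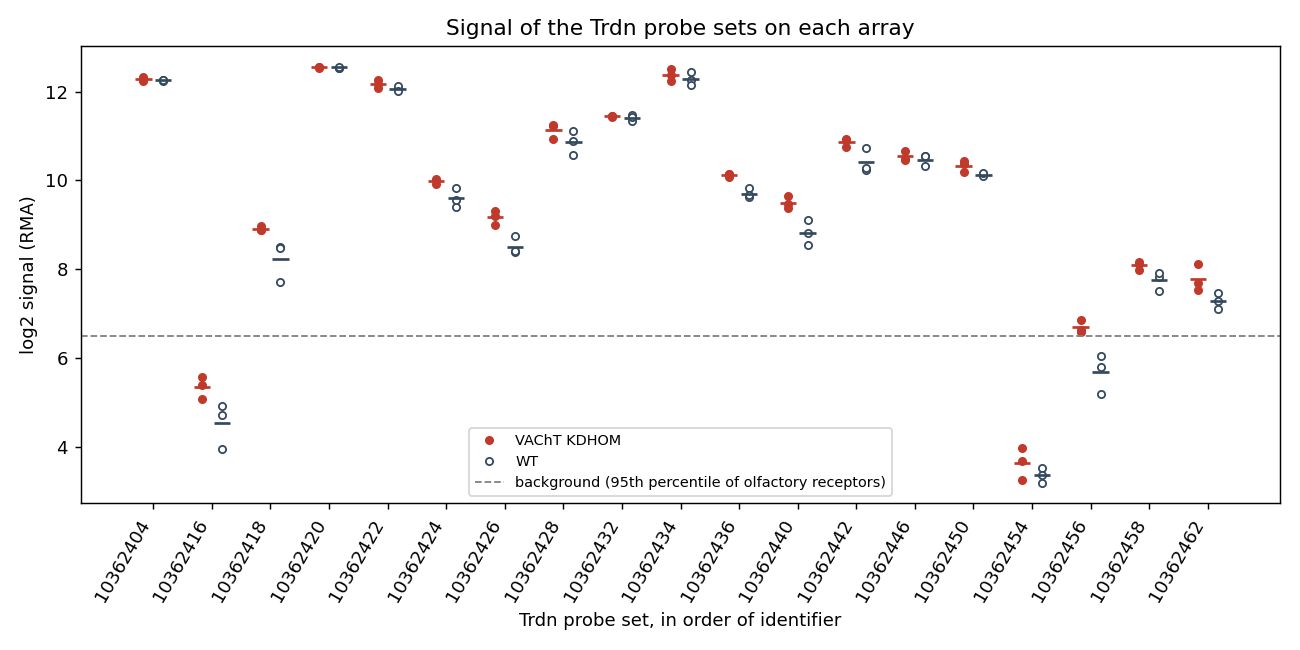
Log2 signal (vertical axis) of the 19 Trdn probe sets in order of identifier (horizontal axis), with 3 VAChT KDHOM arrays (filled) left of 3 WT arrays (open), group means as short lines and background as a dashed line. Probe sets 10362416 and 10362454 lie below 6.50 on every array, and the brightest, 10362420, is at 12.55 in mean.

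Bright and dim probe sets stood beside each other in the order of identifiers. The first, 10362404, had a mean of 12.27, the next, 10362416, a mean of 4.94, then 10362418 a mean of 8.57 and 10362420 a mean of 12.55. Of the 18 steps between neighbouring identifiers, 8 were larger than 2 on the log2 scale, the median step was 1.61 and the largest 7.33. The last 4 identifiers, 10362454 to 10362462, were all among the 6 dimmest. The annotation ties each probe set to the same RefSeq transcript, NM_029726, and 10362404 to further cDNA records as well. The RefSeq table of the assembly GRCm38.p6 lists 3 transcripts of the gene, and which exon a probe set covers is not given in the sources used here. An unlisted probe set, 10362448, has an identifier within this run, with a mean of 4.80 and a difference of -0.09, and was not counted as Trdn.

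Ordered by mean signal, the probe sets fell into a nearly continuous ladder. The top of it was 10362420 at 12.55, 10362434 at 12.34, 10362404 at 12.27, 10362422 at 12.12, 10362432 at 11.42 and 10362428 at 11.00. At 4 of the 18 steps down this ladder the drop was no larger than the spread between arrays of the same genotype, namely between 10362434 and 10362404, 10362442 and 10362446, 10362436 and 10362424, and 10362426 and 10362418. The widest drops were at the lower end, with 1.35 from 10362462 at 7.54 to 10362456 at 6.19 and 1.44 from 10362416 at 4.94 to 10362454 at 3.50.

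All 19 probe sets had a higher mean on VAChT KDHOM arrays than on WT arrays, by a log2 difference of 0.01 to 1.01, with a median of 0.33 against -0.02 over all probe sets. At 11 of the 19 every VAChT KDHOM array lay above every WT array, and at 0 every one lay below. Over all 35556 probe sets these shares were 6.25% above and 12.9% below. With the labels of both arrays numbered 2 exchanged, the count of 11 became 1, at 10362454, and the count of 0 became 1, at 10362404, against 6.4% and 6.44% of all probe sets. In limma 10 of the 19 passed an unadjusted p of 0.05, all in this direction, where 3.93% of all probe sets did. The count was 5 with the test named in the methods, which estimates the spread of each probe set alone, against 2.71%, and 1 in limma with the labels of both arrays numbered 2 exchanged, against 3.54%. With a fold of 1.3 added, 9 of the 19 passed, against 2.12%, and 1 after the exchange, against 1.51%. None passed an adjusted p of 0.05 (Benjamini-Hochberg over all probe sets, lowest 0.409), while 1 probe set on the array did (0.00281%). As Trdn was chosen with this contrast known, nothing is read from these counts. The probe sets also share the gene and the arrays and are not replicates of each other.

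**Figure D2:**
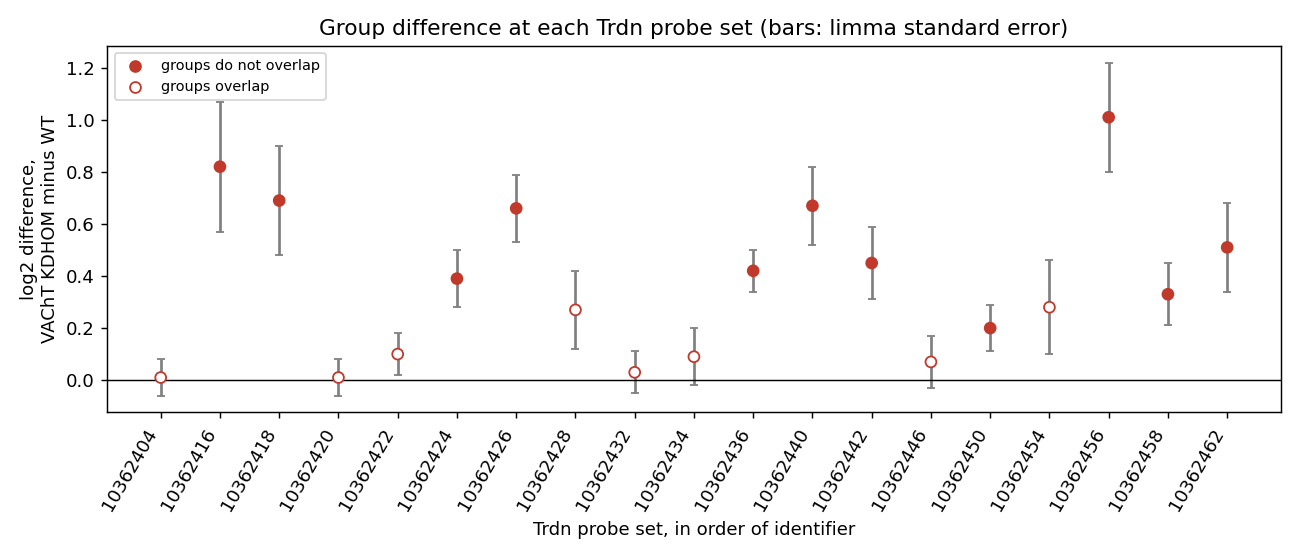
Log2 difference, VAChT KDHOM minus WT, at each of the 19 Trdn probe sets (vertical axis) in order of identifier (horizontal axis), with limma's standard error as bars and n = 3 arrays in each group; filled points mark the 11 probe sets at which the groups do not overlap. The highest point is 10362456 at 1.01, and 10362404 and 10362420 lie at 0.01.

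The widest difference was found at a probe set on the edge of background. Probe set 10362456 read 6.85, 6.59 and 6.64 on the VAChT KDHOM arrays and 5.20, 6.06 and 5.81 on the WT arrays. All 3 VAChT KDHOM values lay above the background of 6.50 and all 3 WT values below it. Its log2 difference was 1.01 (standard error 0.21), a 2.01-fold difference. Probe set 10362416, below background throughout, read 5.57, 5.09 and 5.39 on the VAChT KDHOM arrays and 3.95, 4.73 and 4.92 on the WT arrays, a difference of 0.82 (standard error 0.25). At both, WT 1 was the lowest array, and the gap between the lowest VAChT KDHOM array and the highest WT array, 0.53 and 0.17, was smaller than the distance from WT 1 to the next WT array. The differences were 0.65 and 0.58 with the labels of both arrays numbered 2 exchanged, and the groups then overlapped at both.

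Probe sets well above background also differed with the labels as given. Probe set 10362440 read 9.64, 9.47 and 9.38 on the VAChT KDHOM arrays and 8.55, 9.11 and 8.82 on the WT arrays, a difference of 0.67 (standard error 0.15). Probe set 10362426 read 9.32, 9.21 and 9.00 on the VAChT KDHOM arrays and 8.39, 8.74 and 8.41 on the WT arrays, a difference of 0.66 (standard error 0.13). In each case the groups were apart, and WT 2 was the WT array nearest to VAChT KDHOM. Probe set 10362418 read 8.89, 8.98 and 8.88 on the VAChT KDHOM arrays and 7.71, 8.50 and 8.48 on the WT arrays, a difference of 0.69 (standard error 0.21). Here the VAChT KDHOM arrays lay close together and WT 1 alone was far below the rest. After the labels of both arrays numbered 2 were exchanged, 10362440 differed by 0.43, 10362426 by 0.35 and 10362418 by 0.37. The groups then overlapped at each.

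Probe set 10362436, in the middle of the ladder, read 10.14, 10.08 and 10.14 on the VAChT KDHOM arrays and 9.62, 9.82 and 9.67 on the WT arrays. Its difference of 0.42 (standard error 0.08), or 1.33-fold, was the one with the smallest error among those apart. Probe set 10362442 read 10.92, 10.94 and 10.75 on the VAChT KDHOM arrays and 10.24, 10.73 and 10.29 on the WT arrays, a difference of 0.45 (standard error 0.14). Its groups were apart by only 0.02, since WT 2 reached nearly as high as VAChT KDHOM 3. The remaining probe sets without overlap were 10362424 at 0.39, 10362450 at 0.20, 10362458 at 0.33 and 10362462 at 0.51. Of these, 10362450 did not pass an unadjusted p of 0.05 in limma (adjusted p = 0.435). After the same exchange of labels, 10362436 differed by 0.25 and 10362442 by 0.31. The groups then overlapped at these and at the remaining probe sets.

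The brightest probe sets hardly differed. Probe set 10362420 read 12.54, 12.56 and 12.56 on the VAChT KDHOM arrays and 12.54, 12.53 and 12.56 on the WT arrays, a difference of 0.01 (standard error 0.07). Probe set 10362404, to which most cDNA records are tied, read 12.26, 12.32 and 12.25 on the VAChT KDHOM arrays and 12.27, 12.25 and 12.27 on the WT arrays, a difference of 0.01 (standard error 0.07). Across all 6 arrays these values spanned only 0.03 and 0.07, and the groups overlapped at both. The 6 other probe sets whose groups overlapped were 10362422 at 0.10, 10362428 at 0.27, 10362432 at 0.03, 10362434 at 0.09, 10362446 at 0.07 and 10362454 at 0.28. The dimmest, 10362454, read 3.98, 3.25 and 3.69 on the VAChT KDHOM arrays and 3.20, 3.52 and 3.37 on the WT arrays, so that VAChT KDHOM 2 lay among the WT arrays. Its difference was 0.47 without VAChT KDHOM 2, 0.11 without VAChT KDHOM 1, 0.55 without both arrays numbered 2 and 0.46 with their labels exchanged.

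The size of the difference thus went down with signal. Of the 9 probe sets dimmer than the median one, 8 did not overlap, with a median difference of 0.66. Of the 9 brighter than it, 2 did not overlap, with a median difference of 0.09. Over all probe sets the share with every VAChT KDHOM array above every WT array was 6.25%. Over the 19 probe sets Pearson's r between mean signal and difference was -0.67 and Spearman's rho -0.79, and without the dimmest probe set r was -0.87 over 18. These are descriptions across probe sets of the same arrays, whose mean and difference come from the same values. The gene was picked for a wide difference at 1 probe set and almost none at its brightest, which favours a negative r. Of the 24 genes with 10 or more probe sets, 20 had an r below 0, Trdn among them, and it was lower than that of Trdn in 4, Myo18b, Nlrc5, Dnajc13 and Cspp1. With the labels of both arrays numbered 2 exchanged, r for Trdn was -0.84. VAChT KDHOM then lay wholly above WT at 1 of the 9 dimmer and 0 of the 9 brighter probe sets, against 6.4% of all.

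**Figure D3:**
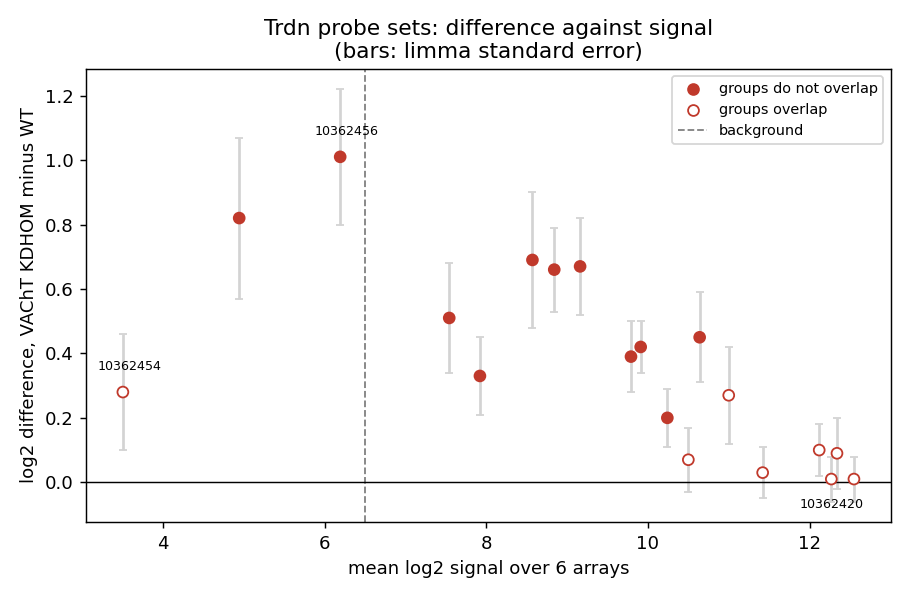
Log2 difference, VAChT KDHOM minus WT (vertical axis, bars give limma's standard error, n = 3 arrays in each group), against mean log2 signal over the 6 arrays (horizontal axis) for the 19 Trdn probe sets, with background as a dashed line. Points fall towards 0 at the bright end (10362420), and the dimmest, 10362454, lies at 0.28.

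Individual arrays contributed unequally. The mean over the 19 probe sets was 9.72, 9.61 and 9.56 on the VAChT KDHOM arrays 1 to 3 and 9.11, 9.40 and 9.27 on the WT arrays 1 to 3. The genotypes were apart in this mean, with WT 1 lowest and VAChT KDHOM 1 highest. WT 1 was the lowest array at 11 probe sets, WT 2 at 5 and WT 3 at 3. VAChT KDHOM 1 was the highest at 9 and VAChT KDHOM 2 at 7. WT 2 was the highest WT array at 12 of the 19. Over the 171 pairs of Trdn probe sets the median r across the 6 arrays was 0.60, and once each array was taken as its deviation from its group mean it was 0.28, with 106 of 171 pairs above 0.

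**Figure D4:**
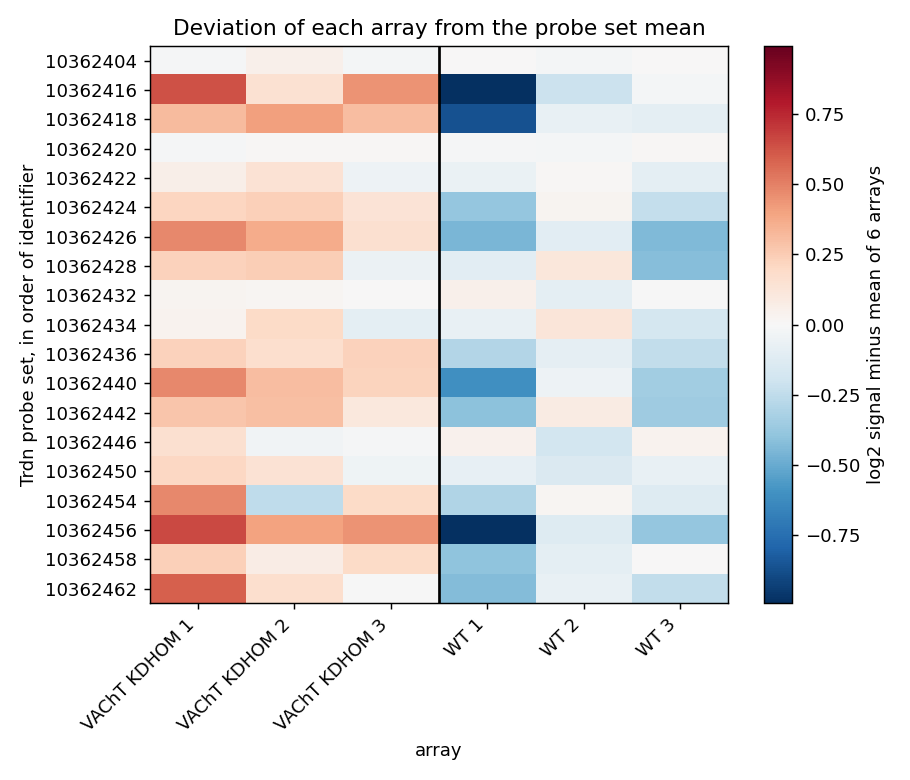
Log2 signal of each array minus the mean of the 6 arrays (colour scale) for the 19 Trdn probe sets (rows, in order of identifier), with the 3 VAChT KDHOM arrays left of the line and the 3 WT arrays right of it. The WT 1 column is the lowest at 11 probe sets, and the rows of 10362404 and 10362420 are nearly blank.

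The counts were repeated without the arrays that stood apart. Without WT 1, 8 of the 19 passed an unadjusted p of 0.05 in limma, against 2.39% of all probe sets in the same direction, and the widest difference was 0.76. Without VAChT KDHOM 1, 9 of the 19 passed, against 3.77%. With both arrays numbered 2 left out, 11 of the 19 passed, against 4.46%. The median difference was then 0.48 and the widest 1.24. With 2 arrays in each group, VAChT KDHOM lay wholly above WT at 14 of the 19, against 18.6% of all probe sets. It lay wholly below at 1, 10362404, against 27.9%. With the labels of both arrays numbered 2 exchanged instead, 1 of the 19 passed, the median difference was 0.25 and the widest 0.65. Not every difference then kept its sign. Of the 19, 18 were above 0 without VAChT KDHOM 2, 16 without WT 2, 16 without both and 15 after the exchange. The exceptions were 10362404, 10362420, 10362432 and 10362446, at -0.04 or nearer to 0.

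Other values that differ between the genotypes as labelled are given beside these. The mean of the olfactory receptor probe sets was 4.78, 4.81 and 4.73 on the VAChT KDHOM arrays and 4.98, 4.85 and 4.84 on the WT arrays, lower in VAChT KDHOM and highest on WT 1, the opposite way to Trdn. Markers of fast skeletal muscle, a tissue that makes triadin too, averaged 6.69 to 6.80 on VAChT KDHOM arrays and 6.88 to 7.03 on WT arrays. Of its 12 markers 7 lay above background, with Myh1, Myh4, Mylpf, Stac3 and Pvalb below it, and 3 were lower and 0 higher at an unadjusted p of 0.05 in limma, against 7.81% and 3.93% of all probe sets. Without both arrays numbered 2 the count lower was 1, against 6.16% of all probe sets. With their labels exchanged it was 0, against 3.0%. The groups then also overlapped in both means. VAChT KDHOM 2 and WT 2 read 4.81 and 4.85 for the olfactory receptors, and 6.77 and 6.90 for the skeletal muscle markers. The part that any of these play in the Trdn values was not tested. In tissue RNA, fewer cells of a type and less RNA in each cell cannot be told apart.

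Of the other marker lists only that of smooth muscle was apart between genotypes as labelled, and barely so. This list overlapped with the labels of both arrays numbered 2 exchanged, since VAChT KDHOM 2 read 9.28 and WT 2 9.26. Its markers averaged 9.27 to 9.31 on VAChT KDHOM arrays and 9.04 to 9.26 on WT arrays, and atrial markers 9.94 to 10.45 on VAChT KDHOM arrays and 9.70 to 9.99 on WT arrays. Endothelial markers averaged 10.58 to 10.74 on VAChT KDHOM arrays and 10.48 to 10.79 on WT arrays. Fibroblast markers averaged 9.70 to 9.89 on VAChT KDHOM arrays and 9.81 to 9.92 on WT arrays, and leukocyte markers 8.21 to 8.61 on VAChT KDHOM arrays and 8.29 to 8.44 on WT arrays. All markers of these 5 lists lay above background.

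Genes of the same junction and of calcium cycling were read at the brightest probe set of each. The brightest Trdn probe set differed by 0.01 between the genotypes. The widest Trdn difference, 1.01, was at a probe set on the edge of background. Of 28 genes listed, 26 were analysed here, of which Casq1, Ryr1 and Jsrp1 are also fast skeletal muscle markers, so the lists are not separate. At the brightest probe set of each, 0 were higher and 2 lower at an unadjusted p of 0.05 in limma. Over all probe sets 3.93% were higher and 7.81% lower. With the labels of both arrays numbered 2 exchanged 0 passed, where 3.54% of all probe sets were higher and 3.0% lower. Over all 32 probe sets of the listed genes, as labelled, 1 was higher and 2 were lower. Groups did not overlap at 5 of the 26, with Jph2 higher and Fkbp1b, Cacnb2, Ryr1 and Jsrp1 lower, against 6.25% higher and 12.9% lower over all probe sets. The median difference was 0.02, against -0.02 over all probe sets, and the range -0.32 to 0.22. The 2 lower genes were Jsrp1, a junctional protein of skeletal muscle, at -0.26 (standard error 0.09, adjusted p = 0.409), and Fkbp1b, the calstabin that binds the cardiac ryanodine receptor, at -0.23 (standard error 0.09, adjusted p = 0.413) with a signal below background.

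The binding partners of triadin were bright. Ryr2, the cardiac ryanodine receptor, read 12.37, 12.61 and 12.59 on the VAChT KDHOM arrays and 12.47, 12.43 and 12.59 on the WT arrays, a difference of 0.03 (standard error 0.10). Casq2, cardiac calsequestrin, read 11.95, 12.23 and 12.24 on the VAChT KDHOM arrays and 11.95, 12.03 and 12.10 on the WT arrays, a difference of 0.12 (standard error 0.10). Both sets of values overlapped between the genotypes. Asph, whose locus also encodes junctin, differed by -0.01 (standard error 0.08). Jph2, the junctophilin that holds the membranes of the junction together, did not overlap, at 10.01, 10.07 and 10.02 on the VAChT KDHOM arrays and 9.86, 9.94 and 9.99 on the WT arrays, yet differed by only 0.10 (standard error 0.08, limma adjusted p = 0.567). Atp2a2, the calcium pump of the reticulum, differed by -0.28 (standard error 0.25) and its inhibitor Pln by -0.27 (standard error 0.26), both through low readings of 13.54 and 13.50 on VAChT KDHOM 1.

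The annotation held 24 genes with 10 or more probe sets, against which Trdn was set. Its range of mean signal, 9.04, was the widest of the 24, the next being 5.64 for Nlrc5, a regulator of MHC class I genes. The 3 genes with most probe sets, Hmcn1, an extracellular matrix protein, with 77, Dnah3, an axonemal dynein, with 33, and Chd7, a chromatin remodeller, with 30, had ranges of 3.40, 3.89 and 3.47. Trdn also had the highest median difference of the 24, 0.33, followed by Hmcn1 and Dnajc13, an endosomal protein, both at 0.24. In the share of probe sets with every VAChT KDHOM array above every WT array it had 57.9%, behind 4932438A13Rik at 68.4% and Dnajc13 at 60%. With the labels of both arrays numbered 2 exchanged, these shares were 5.26% for Trdn and 0% for the other two. No test sets Trdn apart from these genes.

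**Figure D5:**
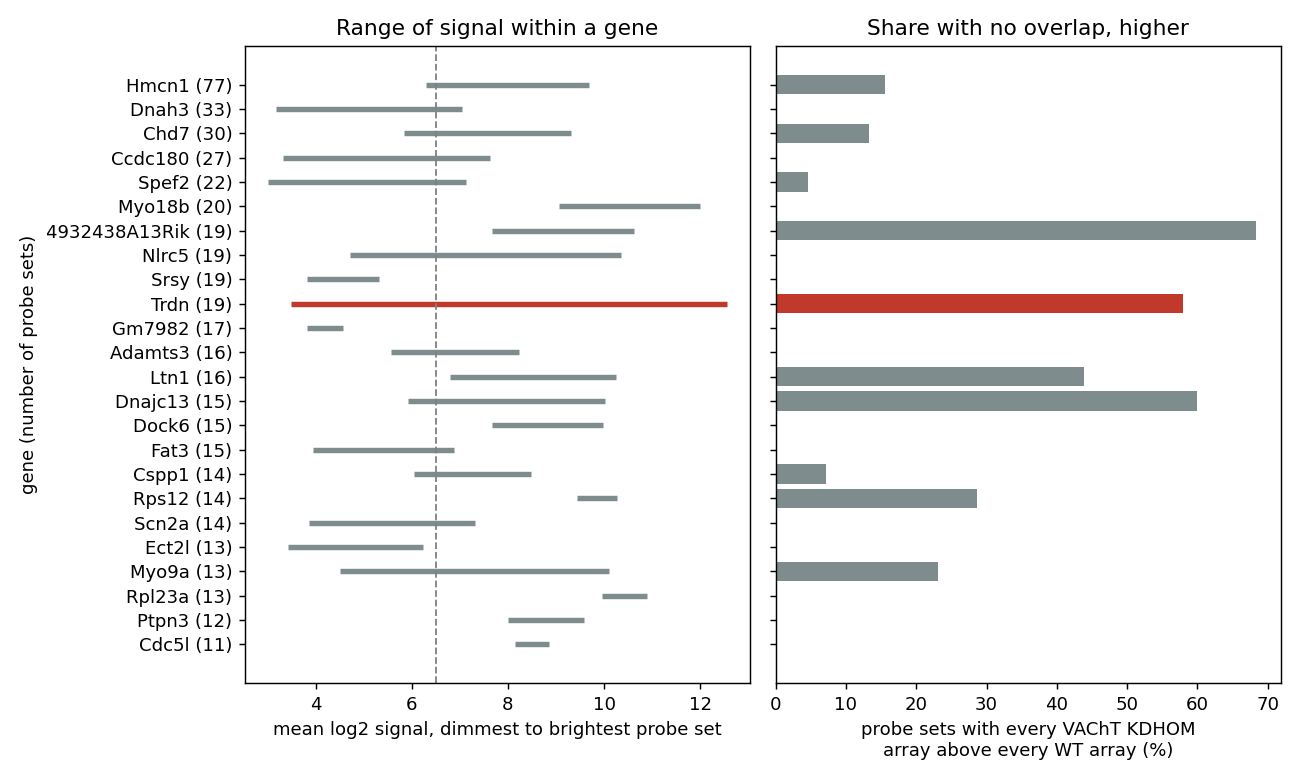
Left, mean log2 signal (horizontal axis) of the dimmest to the brightest probe set of each of the 24 genes with 10 or more probe sets (rows, number of probe sets in brackets), with background as a dashed line; right, percentage of each gene's probe sets at which the 3 VAChT KDHOM arrays all lay above the 3 WT arrays. Trdn (red) spans 3.50 to 12.55 and has 57.9%, below 4932438A13Rik at 68.4% and Dnajc13 at 60%.

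The genes whose pattern over the 6 arrays was most like Trdn depended on the probe set. For the widest difference, at 10362456, they were Pias1, a SUMO ligase, with a Pearson's r of 0.998, Fam76b with 0.991, Ptpre, a tyrosine phosphatase, with 0.991, Cers6, a ceramide synthase, with 0.990, and Haus2, of the augmin complex, with 0.989. Their own differences were smaller, between 0.12 and 0.24. For the brightest, 10362420, they were Tmem25 with 0.990, Pakap with 0.984, Men1, which encodes menin, with 0.984, Acap3 with 0.983 and Smg5, of nonsense-mediated decay, with 0.981, although that probe set itself moved by only 0.03 over the arrays. Each was picked from 14459 probe sets over 6 arrays, and the lists share no gene.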

How the data were processed

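RNA of 6 pools was hybridised to Affymetrix Mouse Gene 1.0 ST arrays, scanned with Command Console and summarised to gene level by the authors in Partek Genomics Suite with RMA. The deposited values are log2 signals from RMA, whose steps include background correction and normalization across arrays. The median of all probe sets still differed between arrays. It was 6.88, 6.89 and 6.84 on the VAChT KDHOM arrays 1 to 3 and 6.98, 6.93 and 6.91 on the WT arrays. The genome build of the values is not given in the sources used here. Gene symbols came from the platform annotation (21789 with 1 symbol, 1621 with several, 12146 unlisted); those with several were not named. No Trdn sequence is printed. The log2 values were used as deposited and without a filter. All 35556 probe sets were fitted in R 4.3.3 with limma 3.58.1, by lmFit and then eBayes (VAChT KDHOM minus WT), and adjusted by the Benjamini-Hochberg method; the fit was checked on simulated data. The number of arrays limits the precision. Named were all Trdn probe sets, listed partner and marker genes (brightest probe set), Slc18a3 and Ogdhl, the 5 genes most like the brightest and the most different Trdn probe set, and the 3 genes with most probe sets; Nlrc5, Dnajc13, 4932438A13Rik, Myo18b and Cspp1 were named after their values were seen. Members and lists were chosen with earlier results of these data known. With the labels as given, samples with the same number did not deviate together, so the main fit had no replicate block.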

Additional observations from a re-analysis of the deposited data

How the results depend on the processing

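The 19 Trdn differences were refitted after a further quantile normalization, after median centring, without dim probe sets, with a mean-variance trend, with array weights, with the replicate number as a block, by the methods' ANOVA, without each array and without both arrays numbered 2; overlap counts under these, and the exchange of the labels of both arrays numbered 2, were added after the data were seen. No Trdn difference that had passed an unadjusted p of 0.05 changed sign, and none passed an adjusted p of 0.05 under any setting (lowest 0.23 in limma, without WT 2). The count of 10 became 5 with the methods' ANOVA, against 2.71% of all probe sets, and 1 with the labels exchanged, against 3.54%. It ran from 8 to 11 with 1 array left out in limma, against 2.39% to 4.9%. The median difference became 0.48 with both arrays numbered 2 left out, 0.25 with their labels exchanged, and ran from 0.29 to 0.40 with 1 array left out. VAChT KDHOM lay wholly above WT at 9 probe sets after quantile normalization and at 15 with median centring, in place of 11. With the labels exchanged it lay wholly above at 1 and wholly below at 1, 10362404, against 6.44% of all probe sets below. The share of all probe sets with VAChT KDHOM above WT was 6.4% with the labels exchanged and 6.25% as labelled. That share is not given for the normalizations, so nothing is read from their counts. Same-numbered arrays had deviations from their labelled group means that correlated at 0.06, -0.12 and 0.13. These deviations depend on the labels, so they cannot decide whether the numbers pair the arrays. With the replicate block 11 Trdn probe sets passed in limma, against 4.4% of all probe sets in the same direction. The median difference stayed at 0.33, and 2 partner genes passed, against 4471 of 35556 probe sets in either direction. The 2 partner genes became 1 after quantile normalization, without dim probe sets, with a mean-variance trend and without both arrays numbered 2, 0 with median centring and with the labels exchanged, and 0 to 2 with 1 array left out. Of all 35556 probe sets, 3667 passed in either direction after quantile normalization, 4140 with the trend and 3690 with median centring. The number was 3779 without both arrays numbered 2, 2323 with the labels exchanged and 2160 to 4658 with 1 array left out. It was 2502 of a smaller total without dim probe sets. By the methods' ANOVA 3 partner genes passed, all lower, against 3081 of 35556 in either direction. Counted over every probe set of the listed genes, 3 of 32 passed in limma, against 11.7% of all probe sets in either direction. The sign of Ryr2, Casq2 and Asph was not stable: with the labels exchanged Ryr2 was -0.09, Casq2 -0.02 and Asph 0.11; Ryr2 was -0.05 and Asph 0.08 without both arrays numbered 2, Asph was 0.06 with median centring, and with 1 array left out Ryr2 ran from -0.02 to 0.10 and Asph from -0.04 to 0.04. The cause was not tested.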
